A study of Mus musculus with 5 samples.

Results

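Regulatory T cells (Tregs) sorted from the adipose tissue of obese mice were compared, gene by gene, with Tregs sorted from lymph nodes (LN). Each side is 1 library. Both libraries came from 4-month C57BL/6 mice of the genotype Foxp3Cre, in which Cre recombinase is made in cells that use the gene of the Treg factor Foxp3, so the control side carries this allele too, and neither genotype names a floxed gene. The title of the obese library carries HFD, which commonly stands for a high-fat diet. The sources used here do not give its fat depot, the length of the diet, the number of mice behind either library or the sorting gate. A gene entered the comparison when it had a value of 1 or more in either library, which held for 14713 of the 49671 gene IDs in the deposited table. Values of 2 other Foxp3Cre adipose libraries are set beside these where they help. The 4-month one is called lean because its labels name no obesity, and the other is from 10-month mice.

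Values are read counts scaled by the authors, in which 1 read was worth 0.126 in the obese and 0.109 in the LN library, over 7496496 and 9694474 listed reads. A value under 1 was listed as 0, and "no read" below means that the authors' fold change shows the value behind that 0 to have been none. A gene counts as higher or lower when log2((obese + 1)/(LN + 1)) was at least 1 in size, which is 2-fold on that scale. That scale understates the ratio of low genes. Folds of single genes are given without the added 1, with a 95% counting interval in parentheses. Against no read, the fold is a lower bound set at 3 reads. With 1 library per side no test between tissues exists, and the intervals cover counting error and not the spread between mice.

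Tregs of fat are known as a tissue population that uses the nuclear receptor PPARγ and the IL-33 receptor ST2, makes IL-10 and amphiregulin, and takes part in local control of inflammation and metabolism. Their number is known to fall in obese mice. LN Tregs hold more resting cells, which recirculate through lymphoid tissue and use adhesion and homing receptors for it.

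The labelled cell type was met on both sides. Foxp3 had 169.6 scaled counts in the obese and 55.7 in the LN library. Il2ra, the α chain of the IL-2 receptor, had 289 and 309, and Ikzf2, the gene of the Treg factor Helios, 3743 and 2471. Ctla4, an inhibitory receptor gene, had 835 in obese adipose and 1338 in LN, and Cd4 had 186 and 102. The CD3 chains, which every T cell uses, were all present and all lower in obese adipose. Cd3e was 2.24-fold lower (2.1 to 2.4), Cd3d 2.31-fold lower (2.24 to 2.38) and Cd3g 3.05-fold lower (2.98 to 3.13). The CD8 genes were low on both sides, with Cd8a at 11.6 and 15.

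The libraries differ beyond tissue and obesity. Xist, made from the inactive X chromosome of females, had 3.39 in obese adipose and 242 in LN, while the Y-linked gene Ddx3y had 529 and no LN read. Genes of other cell types were also present in the obese library. The 29 measured macrophage markers summed to 8191 scaled counts in obese adipose against 29.9 in LN. Lean adipose had 2168. In bulk libraries such as these, fewer cells of a type and less RNA per cell cannot be told apart.

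Of the 14713 genes, obese adipose was at least 2-fold above LN for 6144 (41.8%) and at least 2-fold below it for 3484 (23.7%), 65.4% in all, with a median log2 ratio of 0.44. The excess of higher genes lay among low values. At a mean of 1 to under 10, 2966 of 5194 genes were higher and 1196 lower, whereas at 100 to under 1000, 373 of 1939 were higher and 559 lower. At 1000 or more, 18 of 116 were higher and 53 lower. Centring all ratios on their median, which balances the sides by construction, took the share of higher genes among those past 2-fold from 63.8% to 49.98% (4612 higher and 4615 lower). Among the 9437 genes with 10 or more in either library, 2817 were higher and 2444 lower and the median was 0.04. List counts below are to be read against 41.8% and 23.7%.

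**Figure D1:**
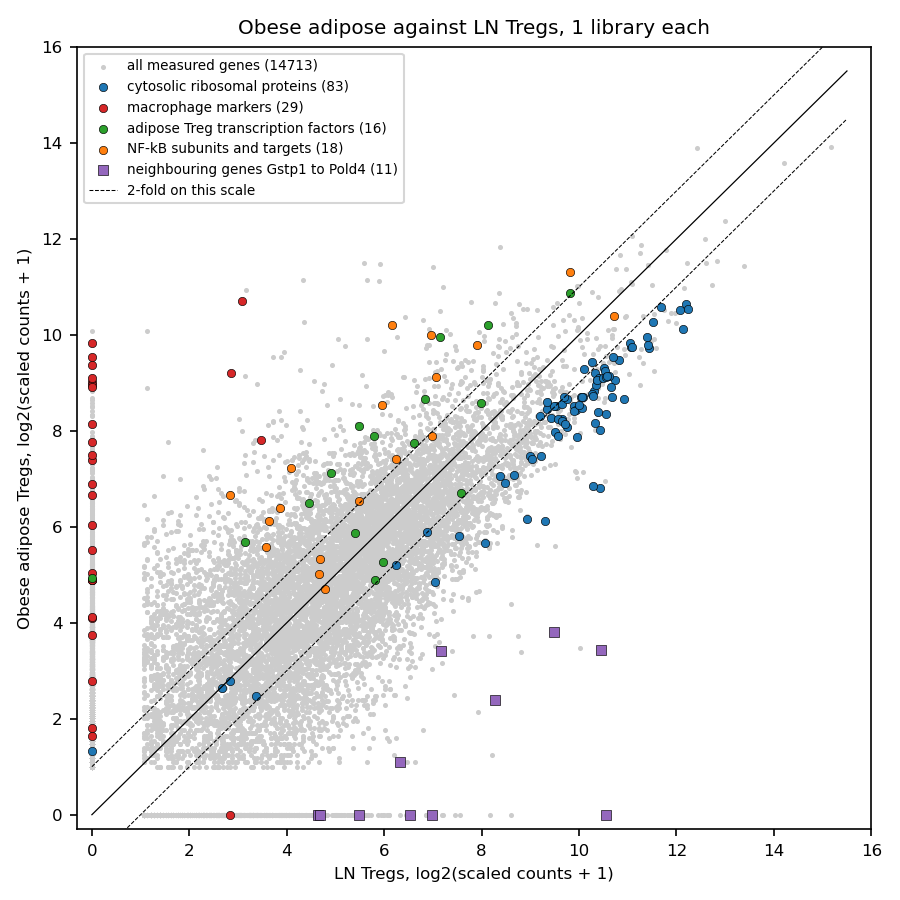
Each gray point is 1 of 14713 genes, with log2(scaled counts + 1) in LN Tregs on the x axis and in obese adipose Tregs on the y axis; the solid line is equality and the dashed lines are 2-fold on this scale. Ribosomal protein genes lie below equality, macrophage markers stand mostly at 0 on the x axis, and the 11 neighbouring genes Gstp1 to Pold4 lie far below the line.

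Transcription factors of adipose and effector Tregs stood above LN as a list. Of 16 measured members, 11 were higher and 0 lower (median log2 ratio 1.93). After centring, 9 were higher and 3 lower. Gata3, a factor of type 2 and tissue Tregs, had 274 in obese adipose, 43.8 in LN and 486 in lean adipose. Pparg, the PPARγ gene, had 29.6 in obese adipose and no LN read, at least 90.4-fold higher. Rora, which encodes the orphan receptor RORα, had 995 and 140.5 and was 7.08-fold higher (6.68 to 7.52). Irf4, needed for effector Treg differentiation, had 50.3 against 7.87 and was 6.38-fold higher (4.96 to 8.32). In lean adipose these genes had 40.0, 2014 and 272, each above the obese value. Prdm1, the gene of the effector factor Blimp-1, was 4.28-fold higher (3.64 to 5.04), and Nfil3, a leucine zipper factor gene, 4.79-fold higher (4.19 to 5.5).

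Other members of that list were close to LN or below it. Maf, a factor for IL-10 production, was 1.5-fold higher (1.42 to 1.58). Batf, the AP-1 partner of IRF4, had 103 in obese adipose and 190.0 in LN, 1.84-fold lower (1.69 to 2). Lean adipose had 219.8 and the 10-month library 195 CPM (counts scaled to equal totals), where LN had 179 CPM and obese adipose 109.5 CPM. Obese adipose was thus the lowest of the 4 libraries for Batf in CPM.

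The core Treg list went both ways. Of 21 members, 6 were higher and 4 lower (median 0.07, and -0.38 after centring). Lrrc32, the gene of GARP, which holds latent TGF-β at the Treg surface, was 4.45-fold higher (3.92 to 5.06). Plagl1, a zinc finger factor gene, was 8.8-fold higher (7.55 to 10.3), and Tigit, an inhibitory receptor gene, 3.22-fold higher (2.95 to 3.52). The lower members included surface receptors. Gpr83, an orphan receptor gene, had 1.38 in obese adipose and 72.7 in LN. Itgae, the integrin αE (CD103) gene, had 30.0 and 188, and Izumo1r, the gene of folate receptor 4, 173 and 546. Both nucleotide-degrading enzyme genes were near LN, with Entpd1 (CD39) 1.37-fold higher (1.21 to 1.55) and Nt5e (CD73) 1.14-fold lower (1.08 to 1.21). Lean adipose differed from this for Entpd1 (7.8) and for Il2ra (1446). Its Nt5e value was 278.

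**Figure D2:**
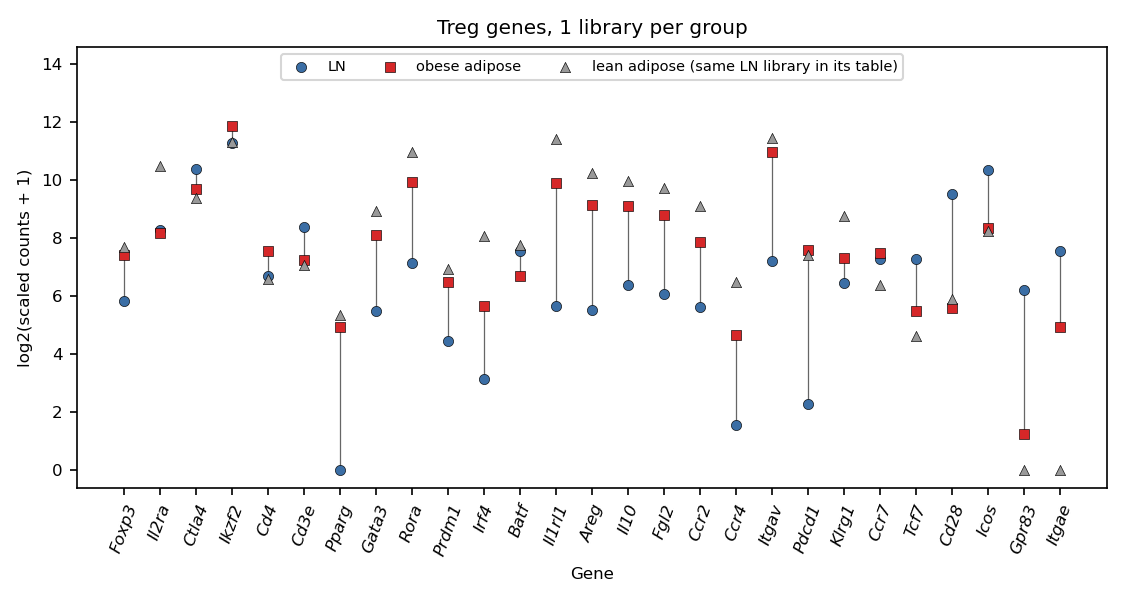
Level of 27 Treg and T cell genes as log2(scaled counts + 1) on the y axis, 1 library per group; lines join the LN and obese adipose values of a gene, and lean adipose comes from its own table with the same LN library. Gata3, Rora, Il1rl1, Areg, Il10 and Itgav stand above LN in obese adipose, while Cd28, Icos, Gpr83, Itgae and Tcf7 stand below it.

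Among genes of secreted and surface mediators, 7 of 15 were higher and 3 lower (median 0.97). Il10, the gene of the suppressive cytokine IL-10, had 552 in obese adipose, 82.8 in LN and 1007 in lean adipose. Areg, the gene of the repair factor amphiregulin, had 573 in obese adipose and 45.6 in LN, 12.6-fold higher (11.4 to 13.9). Fgl2, which encodes a secreted suppressive protein, had 446 and 66.8, 6.68-fold higher (6.13 to 7.29). In lean adipose Areg and Fgl2 had 1224 and 843. Lgals3, the galectin-3 gene, also used by macrophages, was 21.6-fold higher (18.1 to 26.1). Il1rn, the gene of the IL-1 receptor antagonist, and Ptgs2, the gene of cyclooxygenase-2, had 112 and 41.3 with no LN read. In the 10-month library, whose macrophage marker sum was 764 CPM against 8698 CPM in obese adipose, Il1rn had 11.6 CPM and Ptgs2 was listed at 0, while Areg had 1946 CPM. Their cell of origin was not tested. Penk, the proenkephalin gene, was lower in obese adipose, with 111 against 338. Ebi3, a subunit gene of IL-35 and IL-27, had 15.6 and 28.4, and the granzyme gene Gzmb 34.2 and 18.5.

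Receptors for cytokines showed the ST2 gene far above LN and a set of receptor genes with no LN read. Of 23 members, 11 were higher and 3 lower (median 0.90). Il1rl1, which encodes ST2, had 968 in obese adipose, 49.3 in LN and 2745 in lean adipose. Lifr, the receptor gene of the cytokine LIF, had 28.3 with no LN read. Il4ra, the α chain gene of the IL-4 and IL-13 receptors, had 91.1 in obese and 97.8 in lean adipose and no LN read, and 106 CPM in the 10-month library. Il6st, the gp130 gene, was 2.24-fold higher (2.05 to 2.46), whereas Il6ra, which encodes its ligand-binding partner for IL-6, had 27.3 against 104, 3.82-fold lower (3.29 to 4.45). Il7r, the gene of the IL-7 receptor, was 1.56-fold higher (1.51 to 1.6), and Il18r1, of the IL-18 receptor, 1.28-fold lower (1.18 to 1.38). Tgfbr1, a receptor chain gene for TGF-β, was on the lower side, 2.12-fold lower (1.94 to 2.31).

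Inhibitory and costimulatory receptors were on balance lower. Of 18 members, 4 were higher and 8 lower (median -0.75), a larger share lower than among all genes. Cd28, the main costimulatory receptor gene of T cells, had 47.5 in obese adipose and 731 in LN, 15.4-fold lower (13.9 to 17.1). Icos, a related receptor gene, had 325 and 1324, 4.07-fold lower (3.9 to 4.25). Lean adipose was at 59.1 and 302. The 10-month library did not share the low Cd28, with 1125 CPM against 50.4 CPM in obese adipose and 689 CPM in LN, and its Icos was 1147 CPM against 345 and 1249. Cd69, an activation and retention receptor gene, was 3.72-fold lower (3.58 to 3.87), and Cd96 4.5-fold lower (4.17 to 4.87). Cd160 had 7 reads in obese adipose and 47.5 scaled counts in LN. On the higher side, Pdcd1, the PD-1 gene, had 194 and 3.83, Havcr2, the TIM-3 gene, 19.2 and 3.72, and Cd83 699.7 and 169.7. Klrg1, a receptor gene of terminally differentiated cells, had 160.4 and 87.5, under 2-fold, where lean adipose had 435.

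The TNF receptor superfamily, whose members drive Treg expansion through NF-kB, had 8 of 17 higher and 2 lower (median 0.87). Tnfrsf4, the OX40 gene, had 3248 in obese adipose and 1842 in LN, 1.76-fold higher (1.73 to 1.8). Tnfrsf18 (GITR) was 1.31-fold higher (1.25 to 1.37). Tnfrsf9 (4-1BB) was 3.09-fold higher (2.94 to 3.26), Tnfrsf1b (TNFR2) 3.25-fold higher (2.98 to 3.55) and the adaptor gene Traf1 3.18-fold higher (2.97 to 3.41). Fas, the death receptor gene, was 2.54-fold lower (2.35 to 2.75). Traf5, an adaptor gene, had 52.3 in LN and no read in obese adipose. Its neighbour Rcor3 had 1.26 and 32.7.

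Chemokine receptors were mostly higher. Of 17 members, 10 were higher and 2 lower (median 2.01), the same counts after centring. Ccr1 and Ccr2, receptor genes for inflammatory chemokines, had 56.3 and 232 in obese adipose, with no LN read for Ccr1 and 48.8 for Ccr2. Ccr3 was 8.59-fold higher (7.01 to 10.6). Ccr3 is also an eosinophil marker, and the other measured marker of that list, Prg2, had 5.15 with no LN read. Ccr4 had 24.5 and 1.97, Ccr8 274 and 85.3, and Cxcr6 354 and 86.8, all receptor genes of T cells that enter tissues. Receptors of lymphoid traffic were close to LN. Ccr7, which brings T cells into LN, had 178 and 156, S1pr1, which lets them leave, 169 and 109, and Cxcr3 113 and 112. Ccr6, a receptor gene of mucosal homing, was 3.49-fold lower (2.77 to 4.44).

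For adhesion, 6 of 17 integrin and selectin genes were higher and 2 lower (median 0.47), near the median of all genes. Itgav, the integrin αV gene, had 2039.7 in obese adipose and 147 in LN, 13.9-fold higher (13.2 to 14.7). Its partners Itgb3 and Itgb8, which form the integrins αVβ3 and αVβ8, had 148 with no LN read and 162 against 48.

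Chemokine ligands were the list with the largest median outside the markers of other cell types. Of 22 members, 20 were higher and 1 lower, with a median of 5.21, or 5.76 without the added 1 and with genes at no read set to their bound. In LN 13 of them were listed at 0, 12 of these with no read. At a mean of 10 or more, 15 of 16 were higher and 0 lower. Ccl4, an inflammatory chemokine gene, had 1955 in obese adipose and 7.98 in LN, 245-fold higher (195 to 313). Ccl2, a ligand of CCR2, had 799.6 and 14.4, 55.4-fold higher (46.6 to 66.3). Cxcl2, a neutrophil attractant gene, had 2743 and 126, 21.7-fold higher (20.5 to 23), and its relative Cxcl1 397 with no LN read. Ccl5 was 3.02-fold higher (2.85 to 3.21). Xcl1, a ligand gene of cytotoxic and some helper T cells, was the lower member, with 2.01 and 14. Lean adipose had 590.4 for Ccl4, 1193 for Ccl2 and 1886 for Cxcl2. Ccl8, a chemokine gene of tissue macrophages, had 1079 in obese and 174 in lean adipose and no LN read. Macrophages are a known source of these chemokines, and the macrophage marker sum was 8191 in obese and 2168 in lean adipose. The ligands did not all follow that order, since Ccl2, Cxcl1 (539 in lean adipose) and Ccl7 (926 in obese and 1003 in lean adipose) were higher in lean adipose. In the 10-month library Ccl4 had 13 CPM against 2076 CPM in obese adipose and Ccl2 53.9 against 849, whereas Cxcl2 had 4895 against 2912. The part of other cells in these values was not tested.

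The promoters of the paired genes Cxcl1 and Cxcl2 are shown because both hold 2 matches to the kappa B motif (GGG, any 2 bases, TTTCC), the kind of site that NF-kB subunits bind, and NF-kB genes were higher too (below). Promoters are 250 bases before to 50 after the start, from RefSeq on GRCm38.p6, read 5′ to 3′ on the gene's strand, with matches on either strand in capitals. The deposited tables hold no coordinates. Cxcl1 lies at chr5:90890995-90891294 and Cxcl2 at chr5:90903649-90903948, both on the + strand.
Cxcl1: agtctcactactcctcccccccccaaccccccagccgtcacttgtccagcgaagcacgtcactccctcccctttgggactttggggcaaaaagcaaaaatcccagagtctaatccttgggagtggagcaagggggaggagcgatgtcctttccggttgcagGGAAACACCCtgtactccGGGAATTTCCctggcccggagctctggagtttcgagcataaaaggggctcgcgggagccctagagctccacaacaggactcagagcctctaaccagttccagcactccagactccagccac
Cxcl2: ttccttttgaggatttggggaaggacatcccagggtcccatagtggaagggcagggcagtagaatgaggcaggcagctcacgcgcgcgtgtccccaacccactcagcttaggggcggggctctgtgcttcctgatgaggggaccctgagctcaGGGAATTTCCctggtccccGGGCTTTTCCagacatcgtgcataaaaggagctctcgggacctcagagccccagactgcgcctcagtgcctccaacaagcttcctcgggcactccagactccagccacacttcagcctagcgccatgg
Of the 20 higher chemokine ligands, 14 had a promoter in the table, and 4 of these (Ccl9, Cxcl1, Cxcl2 and Cxcl3) held the letters, against 1.895% of 27025 genes with a promoter there. Cxcl1 and Cxcl2 are related genes close together on the same chromosome, so their matches are not independent. A match is a description of sequence and does not show binding, and a part of NF-kB in these values was not tested.

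Cytokines and regulators of helper T cells had 11 higher and 5 lower of 19 (median 2.01). Of the 19, 7 were listed at 0 in LN and 4 in obese adipose, so the filter fixed their calls. At a mean of 10 or more, 8 of 13 were higher and 2 lower. Il1b, the IL-1β gene, a product of myeloid cells, had 411 in obese adipose, 29.5 in lean adipose and no LN read. Tnf had 75.5 and 18.6, 4.06-fold higher (3.42 to 4.84). Il6 had 39.6 with no LN read and 313 in lean adipose. Il5, a type 2 cytokine gene, had 22.9 with no LN read, where lean adipose had 86.7. Ifng was near LN, with 129.7 and 139. Among regulators, Bcl6, of follicular T cells, was 6.06-fold higher (4.61 to 8.08), and Tbx21, the T-bet gene, had 11.3 with no LN read. The lymphotoxin genes were lower. Ltb had 140.2 in obese adipose and 974 in LN, 6.94-fold lower (6.52 to 7.4), and its neighbour Lta had 2 reads and 288 scaled counts.

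Genes of T cell receptor signalling and of naive T cells leaned little to either side before centring. Of 28 receptor and proximal signalling genes, 5 were higher and 5 lower (median -0.19), fewer in both directions than among all genes, and 4 and 10 after centring. The phosphatase gene Ptpn22 was 2.91-fold higher (2.8 to 3.02). Lat, the adaptor at the centre of the receptor signal, had 249 and 1031, 4.15-fold lower (3.95 to 4.35). Lck, the kinase that phosphorylates CD3, was 1.66-fold lower (1.59 to 1.73) and Zap70 1.78-fold higher (1.6 to 1.98). Of 20 naive and lymphoid genes, 5 were higher and 5 lower (median -0.24), and 3 and 8 after centring. Tcf7, which encodes the resting-state factor TCF-1, had 44.6 and 155, 3.47-fold lower (3.09 to 3.91). Id3, an inhibitor of E proteins, had 60.0 and 301, 5.01-fold lower (4.54 to 5.53). Klf2, which sustains S1pr1, had 203 and 219, and Ets1, a factor gene of resting T cells, was 2.19-fold higher (2.11 to 2.29).

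Early response and NF-kB genes were higher in obese adipose. NF-kB is held in the cytoplasm by IκB proteins and, once released, turns on the genes of its own inhibitors. Of 18 NF-kB members, 13 were higher and 0 lower (median 1.95), and after centring 11 and 0. All 5 subunit genes were among them. Rel, the c-Rel subunit gene that Tregs need, had 1188 in obese adipose and 71 in LN. Nfkb1 had 1020.2 and 124, 8.25-fold higher (7.75 to 8.79). Rela was 16.4-fold higher (12.5 to 21.9), Nfkb2 6.13-fold higher (5.05 to 7.49) and Relb 2.1-fold higher (1.86 to 2.38). The inhibitors stood on both sides of LN. Nfkbie was 9.33-fold higher (7.85 to 11.2), Nfkbiz 3.73-fold higher (3.56 to 3.92) and Tnfaip3, the A20 gene, 2.82-fold higher (2.75 to 2.9), but Nfkbia, the IκBα gene, had 1352 and 1685, 1.25-fold lower (1.22 to 1.28). Of the 9 higher members with a promoter in the table, Rel, Nfkb2 and Tnfaip3 held the kappa B letters, and so did Nfkbia among 5 others. In the 10-month library Rel had 924 CPM and Nfkb1 1287, against 1262 and 1083 in obese adipose and 66.9 and 117 in LN. The macrophage marker sum was 8698 CPM in obese adipose, 764 at 10 months and 28.2 in LN, and its part in these values was not tested.

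Early response genes had 19 of 30 higher and 4 lower (median 1.40), or 13 and 6 after centring (median 0.95). Nr4a1 and Nr4a3, orphan receptor genes that follow antigen receptor signals, had 372 and 806 in obese adipose and 27.2 and 63.1 in LN. Nr4a1 was thus 13.7-fold higher (12 to 15.6), and Nr4a3 12.8-fold higher (11.7 to 13.9). Ier3 was 37.8-fold higher (24 to 63.2) and Dusp5, a phosphatase gene that dampens ERK, 14.2-fold higher (12.1 to 16.7). Not all early genes were on this side. Ier2 was 2.75-fold lower (2.59 to 2.93), Dusp6 2.52-fold lower (2.13 to 3.01) and Rgs1, a brake on chemokine receptor signals, 1.64-fold lower (1.62 to 1.67). The AP-1 list had 5 of 14 higher and 0 lower (median 0.38, and -0.06 after centring). Fosl2 had 746 and 13.7, 54.6-fold higher (45.7 to 65.7), and Atf3, a stress-induced member, 222 and 9.18, 24.1-fold higher (19.4 to 30.4). Fosb was 2.33-fold higher (2.17 to 2.51). The other classical members named here were near LN, with Fos 1.14-fold lower (1.08 to 1.19), Jun 1.39-fold higher (1.22 to 1.58) and Junb 1.22-fold higher (1.16 to 1.27).

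Lipid handling was higher for uptake and storage and not for oxidation. Of 16 uptake and binding genes, 12 were higher and 1 lower (median 3.01). With a pseudocount of 5, 10 were higher and 1 lower (median 1.73). Of the 16, 8 were listed at 0 in LN and so entered only through obese adipose. Lpl, the gene of lipoprotein lipase, which frees fatty acids from lipoproteins, had 162 in obese adipose and 14.5 in LN, 11.2-fold higher (9.34 to 13.5). Cd36, a fatty acid transporter gene, had 341 against 1 LN read, and Fabp4, a fatty acid binding protein gene of adipocytes and macrophages, 276 with none. Lean adipose had 10.2, 47.8 and 13, and the 10-month library 17.9, 5.49 and 33.2 CPM. All 3 were thus highest in the obese library, which also had the highest macrophage marker sum. The part of macrophages in these values was not tested. Acsl4, which activates fatty acids, was 6.62-fold higher (5.4 to 8.18). Fabp5, the binding protein gene of T cells, was near LN, with 113 and 131.

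Of 20 genes of triglyceride storage, 12 were higher and 2 lower (median 1.33), and 6 were listed at 0 in LN. With a pseudocount of 5, 8 were higher and 1 lower (median 0.70). At a mean of 10 or more, 8 of 14 were higher and 0 lower (median 1.18). Hilpda, an inhibitor of lipolysis on lipid droplets, had 965 and 32, 30.1-fold higher (26.8 to 34). Dgat1, which makes triglyceride, had 2255 and 19, and Dgat2 had 64.1 with no LN read. In the 10-month library Hilpda had 2632, Dgat1 2892 and Dgat2 91 CPM, above obese adipose (1025, 2395 and 68), unlike the uptake genes just named. Pnpla2, the gene of the lipase that starts lipolysis, had 14.9 and 15.2. Plin2, the perilipin gene of most cells that store lipid, macrophages among them, had 472 in obese and 378 in lean adipose and no LN read, and 529 CPM at 10 months. Plin1, Plin4 and Plin5, the perilipins of adipocytes and oxidative cells, carried no value above 0 on either side.

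Fatty acid oxidation went the other way, with 5 of 25 higher and 9 lower (median -0.57). Cpt1a, which brings fatty acids to the mitochondrial matrix, was on the higher side, with 104 and 14.2, 7.28-fold higher (6.05 to 8.83). Hadha, of the trifunctional enzyme, was 2.7-fold higher (2.27 to 3.21). Eci1 was 3.92-fold lower (3.48 to 4.42), Decr1 13.2-fold lower (9.26 to 19.6) and Acaa2 2.67-fold lower (2.31 to 3.09), and Acadl and Acadm were 1.45-fold lower (1.3 to 1.62) and 1.28-fold lower (1.03 to 1.59). Genes of fatty acid synthesis and desaturation had 8 of 12 higher and 2 lower (median 1.56), with Elovl6, an elongase gene, 6.5-fold higher (5.35 to 7.94), Fasn 2.3-fold higher (1.61 to 3.32) and Scd2, a desaturase gene, 2.56-fold lower (2.03 to 3.25). The cholesterol list had 16 of 30 higher and 3 lower. Its median was 1.0. Both synthesis lists depended on low values. With a pseudocount of 5 the cholesterol list had 11 higher and a median of 0.42, and the fatty acid list 4 of 12 higher. At a mean of 10 or more, 9 of 21 and 3 of 7 members were higher. Srebf2, which encodes the regulator of sterol synthesis, was 7.41-fold higher (5.43 to 10.3) and Abca1, the gene of a cholesterol exporter, 4.7-fold higher (4.18 to 5.3). Enzyme genes of the synthesis pathway did not all share this, since Hmgcs1 was 1.43-fold lower (1.06 to 1.93) and Ebp 2.8-fold lower (2.5 to 3.14). Of the lists of uptake, storage and oxidation, no higher member with a promoter in the table held the PPAR motif (AGGTCA, any 1 base, AGGTCA), which 0.0481% of all genes there hold. So rare a match could hardly turn up among the 8, 8 and 4 members with a promoter, so its absence says nothing about PPAR.

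Genes of insulin and nutrient signalling were mixed. Of 23 insulin and growth factor members, 8 were higher and 3 lower, with a median of 0.43, near that of all genes, and -0.01 after centring. Irs2, which passes on the insulin receptor's signal, had 163 in obese adipose, 450 in lean adipose and no LN read. Insr, the insulin receptor gene, was 3.21-fold higher (2.7 to 3.84), while Igf1r, its close relative, was 2.17-fold lower (1.94 to 2.44). Igf1, a growth factor gene of macrophages and stromal cells, had 87.8 with no LN read. Mtor was near LN, with 20.9 and 25.3. Of 16 amino acid transport and mTORC1 genes, 8 were higher and 1 lower (median 1.0), with the transporter genes Slc3a2 and Slc38a2 2.78-fold higher (2.61 to 2.97) and 2.71-fold higher (2.55 to 2.89). Glycolysis had 9 of 22 higher and 4 lower (median 0.28, and -0.17 after centring). The entry enzyme genes Hk2 and Gpi1 were 4.98-fold higher (3.9 to 6.42) and 5.46-fold higher (4.6 to 6.51), and the later enzyme genes Eno1 and Ldha 2.8-fold lower (2.58 to 3.03) and 1.85-fold lower (1.76 to 1.93). Gapdh had 10.1 in obese adipose, 1 in lean adipose and 1038 in LN, but 639 CPM in the 10-month library against 979 CPM in LN.

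Genes of protein synthesis and respiration were the main lists below LN. Of 83 cytosolic ribosomal protein genes, 72 were lower and 1 was higher (median -1.45). Together the ribosomal protein genes took 3.96% of listed counts in obese adipose and 9.99% in LN. Of 77 mitochondrial ribosomal protein genes, 55 were lower and 1 higher (median -1.40). Oxidative phosphorylation subunits had 38 of 80 lower and 2 higher (median -0.97), and proteasome subunits 19 of 38 lower and 1 higher (median -1.0). Scaling to equal totals, which shifts all ratios up by about 0.16, left 63 ribosomal protein, 46 mitochondrial ribosomal protein, 30 oxidative phosphorylation and 15 proteasome genes lower. Rpl17, of the large ribosomal subunit, had 111 in obese adipose and 1382 in LN, 12.4-fold lower (11.6 to 13.3), and Rpl21 115 and 1246, 10.8-fold lower (10.1 to 11.6). Among respiratory genes, Ndufa12, of complex I, had 49.5 and 319, and Uqcrc1, of complex III, 7.54 and 91.1. Psma5, of the proteasome core, was 4.29-fold lower (3.98 to 4.63). Many ribosomal protein genes have processed pseudogenes, between which counting may split reads, and processed pseudogenes as a class stood on the other side, with 622 of 734 higher and 73 lower. The 13 genes of the mitochondrial genome had 3 higher and 3 lower (median -0.63), or 2 and 7 after centring (median -1.07). They ranged from mt-Atp8, 20.4-fold lower (12.7 to 34.7), to mt-Co3, 30.7-fold higher (22.8 to 42.4), and mt-Cytb had 2987 and 7294. Of 63 translation factor genes, 18 were lower and 12 higher (median -0.32), with Eif2b1, of the exchange factor eIF2B, 12.5-fold lower (10.1 to 15.7) and Eif6, which keeps ribosomal subunits apart, 15.9-fold higher (11.3 to 23.1).

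Transcript length moved with these ratios. The 7661 protein-coding genes whose mean was at least 10 were put in 5 groups of equal size by the length of their longest protein-coding transcript in GENCODE M21. In the shortest group (up to 1686 bases) 53.1% were lower in obese adipose and 11.8% higher. In the next groups 31.5%, 18.4% and 13.8% were lower, and in the longest (5252 bases and more) 7.77% were lower and 36.2% higher. The median log2 ratio went from -1.09 in the shortest to 0.57 in the longest group. The 10-month library over LN went the same way in CPM, from -0.95 to 0.32, where obese over LN in CPM went from -0.93 to 0.73. Medians of obese over lean adipose were 0.06 to 0.16 in all groups. GC content gave no such slope, with medians of -0.19 to 0.03 over its 5 groups.

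Many members of the lower lists are short. In the shortest group, the 68 cytosolic ribosomal protein genes had a median of -1.45, against -1.04 for all 1466 other genes there. The 45 mitochondrial ribosomal protein genes there had -1.41, against -1.06. The 64 oxidative phosphorylation genes had -1.02, against -1.11 for the others, and the 21 proteasome genes -1.01, against -1.10. Within this group, genes of respiration and of the proteasome were thus no lower than the others, and both ribosomal protein lists had medians below theirs. Only 21 of the 38 proteasome genes lie in this group. The whole proteasome list had a median of -1.0, where all genes of the next length groups had -0.34 and 0.14. Chemokine ligand genes in the same group had a median of 5.99. The cause of the slope was not tested.

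**Figure D3:**
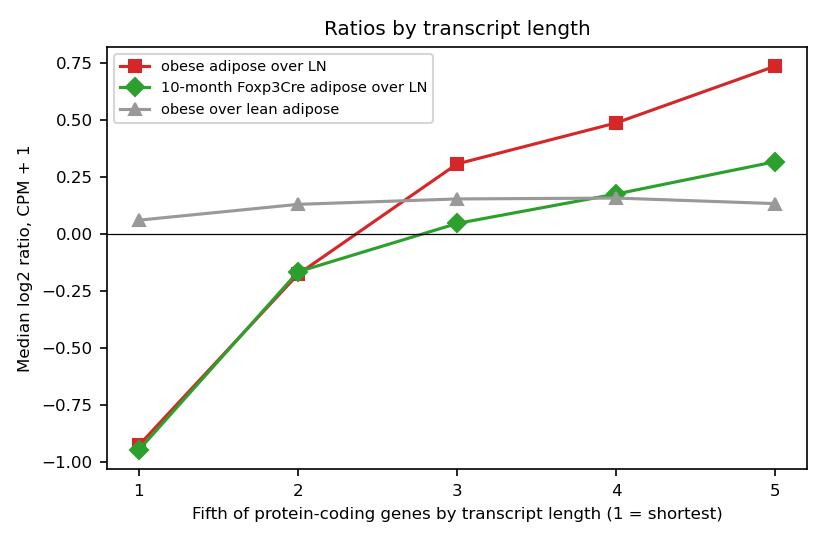
Median log2((CPM + 1)/(CPM + 1)) on the y axis for protein-coding genes in 5 groups of transcript length on the x axis (1 is the shortest). Both adipose libraries set against LN go from about -0.93 and -0.95 to 0.73 and 0.32, while obese over lean adipose stays between 0.06 and 0.16.

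Stress genes were divided by kind. The heat shock list had 6 of 23 higher and 1 lower (median 0.29, and -0.16 after centring). Hspa1a and Hspa1b, the inducible HSP70 genes, had 160.2 and 544 in obese adipose with no LN read. They are near-identical copies between which counting may split reads. Hsph1, an HSP110 gene, was 24.3-fold higher (20.1 to 29.7). The constitutive members were near LN, with Hspa8 1.55-fold higher (1.51 to 1.6), Hsp90aa1 1.41-fold higher (1.3 to 1.54) and the endoplasmic reticulum chaperone gene Hspa5 1.07-fold higher (1.03 to 1.12). Of 22 genes of the unfolded protein response, 7 were higher and 3 lower (median 0.12, -0.33 after centring). Sensor genes were among the higher ones, with Ern1 (IRE1α) at 97.6 and no LN read and Atf6 12.2-fold higher (9.49 to 16.1). Xbp1, the target of IRE1α, was 3.56-fold higher (3.23 to 3.92). Ddit3, the CHOP gene, was lower, 2.66-fold lower (2.29 to 3.1), and so was Pdia3, 2.28-fold lower (2.14 to 2.42).

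Cell division genes had 13 of 33 lower and 9 higher (median -0.63). Mki67, a gene of all cycling phases, had 120.1 in obese adipose and 186 in LN, 1.55-fold lower (1.43 to 1.68). The mitotic cyclin gene Ccnb1 had 11.9 and 49.9, 4.18-fold lower (3.34 to 5.27). Cyclin D3 and its kinase were lower too, with Ccnd3 6.89-fold lower (6.07 to 7.85) and Cdk4 4.58-fold lower (4.09 to 5.13), and Pcna, the replication clamp gene, was 2.16-fold lower (2.05 to 2.28). Cdkn1a, which encodes the inhibitor p21, had 162 and 8.97, 18.1-fold higher (14.4 to 22.9). Subunit genes of the replication helicase were split, with Mcm2 8.36-fold higher (5.79 to 12.4) and Mcm5 2.68-fold lower (2.15 to 3.36).

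Interferon response genes as a list were near all genes, 13 of 37 higher and 8 lower (median 0.46). Single members stood far apart. Rsad2, the gene of the antiviral enzyme viperin, had 143 in obese adipose, no LN read and 0 in lean adipose. Ifit1, which binds viral RNA, had 84.8, 21.9 and 6.01 in the same order. Ifitm3, which blocks viral entry, had 206 with no LN read and 150.3 in lean adipose. Usp18, which shuts off interferon signals, had no read in obese adipose and 39.1 in LN, and Isg20 was 5.84-fold lower (4.93 to 6.95). The transcription factor gene Irf7 was 1.51-fold higher (1.24 to 1.85).

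The promoters of Rsad2 and Ifit1 are shown because these genes had the clearest split between the obese and lean libraries within the list and both hold the interferon motif (GAAA, any 2 bases, GAAA), a core that interferon-regulated factors bind. Capitals mark the matches on either strand (TTTC, any 2 bases, TTTC when read on the other). Rsad2 lies at chr12:26456403-26456702 on the - strand and Ifit1 at chr19:34640639-34640938 on the + strand of GRCm38.p6, from RefSeq.
Rsad2: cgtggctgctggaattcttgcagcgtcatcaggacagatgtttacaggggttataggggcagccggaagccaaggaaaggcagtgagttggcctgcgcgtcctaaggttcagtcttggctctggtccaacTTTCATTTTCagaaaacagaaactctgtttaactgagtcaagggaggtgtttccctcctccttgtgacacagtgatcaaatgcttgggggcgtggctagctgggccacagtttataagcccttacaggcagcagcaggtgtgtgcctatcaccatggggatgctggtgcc
Ifit1: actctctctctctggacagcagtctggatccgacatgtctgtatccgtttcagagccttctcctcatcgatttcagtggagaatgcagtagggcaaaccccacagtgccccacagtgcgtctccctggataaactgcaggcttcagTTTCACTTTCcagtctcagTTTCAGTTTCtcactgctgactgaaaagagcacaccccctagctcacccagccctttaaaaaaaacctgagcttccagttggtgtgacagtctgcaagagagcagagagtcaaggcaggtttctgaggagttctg
Of the 10 higher members with a promoter in the table, 8 held these letters (Stat2, Isg15, Ifit1, Ifitm2, Ifitm3, Rsad2, Gbp5 and Ifih1). They also stood in 9 of the 15 other members there, against 3.993% of all 27025 genes, so matches were also common among members that were not higher.

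Survival genes had 7 of 23 higher and 4 lower (median 0.56, near that of all genes), or 6 and 8 after centring (median 0.12). Bcl2, the main survival gene of resting T cells, had 235 and 426, 1.81-fold lower (1.71 to 1.91), and Mcl1, on which Tregs depend, 487 and 277, 1.76-fold higher (1.67 to 1.85). The death-inducing BH3 genes Bcl2l11 (BIM) and Pmaip1 (NOXA) were 15-fold higher (11.6 to 19.6) and 10.3-fold higher (8.7 to 12.3). Subunits of Mediator, the complex between transcription factors and RNA polymerase II, had 13 of 32 higher and 6 lower, or 10 and 11 after centring. Med23, the subunit that the study deleted in other mice, had 31.4 in obese adipose, 44.6 in lean adipose and 6.78 in LN, 4.63-fold higher (3.5 to 6.22). Med20, Med25 and Med27 had 28.8, 13.2 and 17.5 with no LN read, and Med8 was 4.47-fold lower (3.99 to 5.01). Annexin and S100 genes had 9 of 15 higher and 1 lower, with Anxa1, an anti-inflammatory mediator gene, at 304 against 7.11, 42.7-fold higher (33.4 to 55.5).

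**Figure D4:**
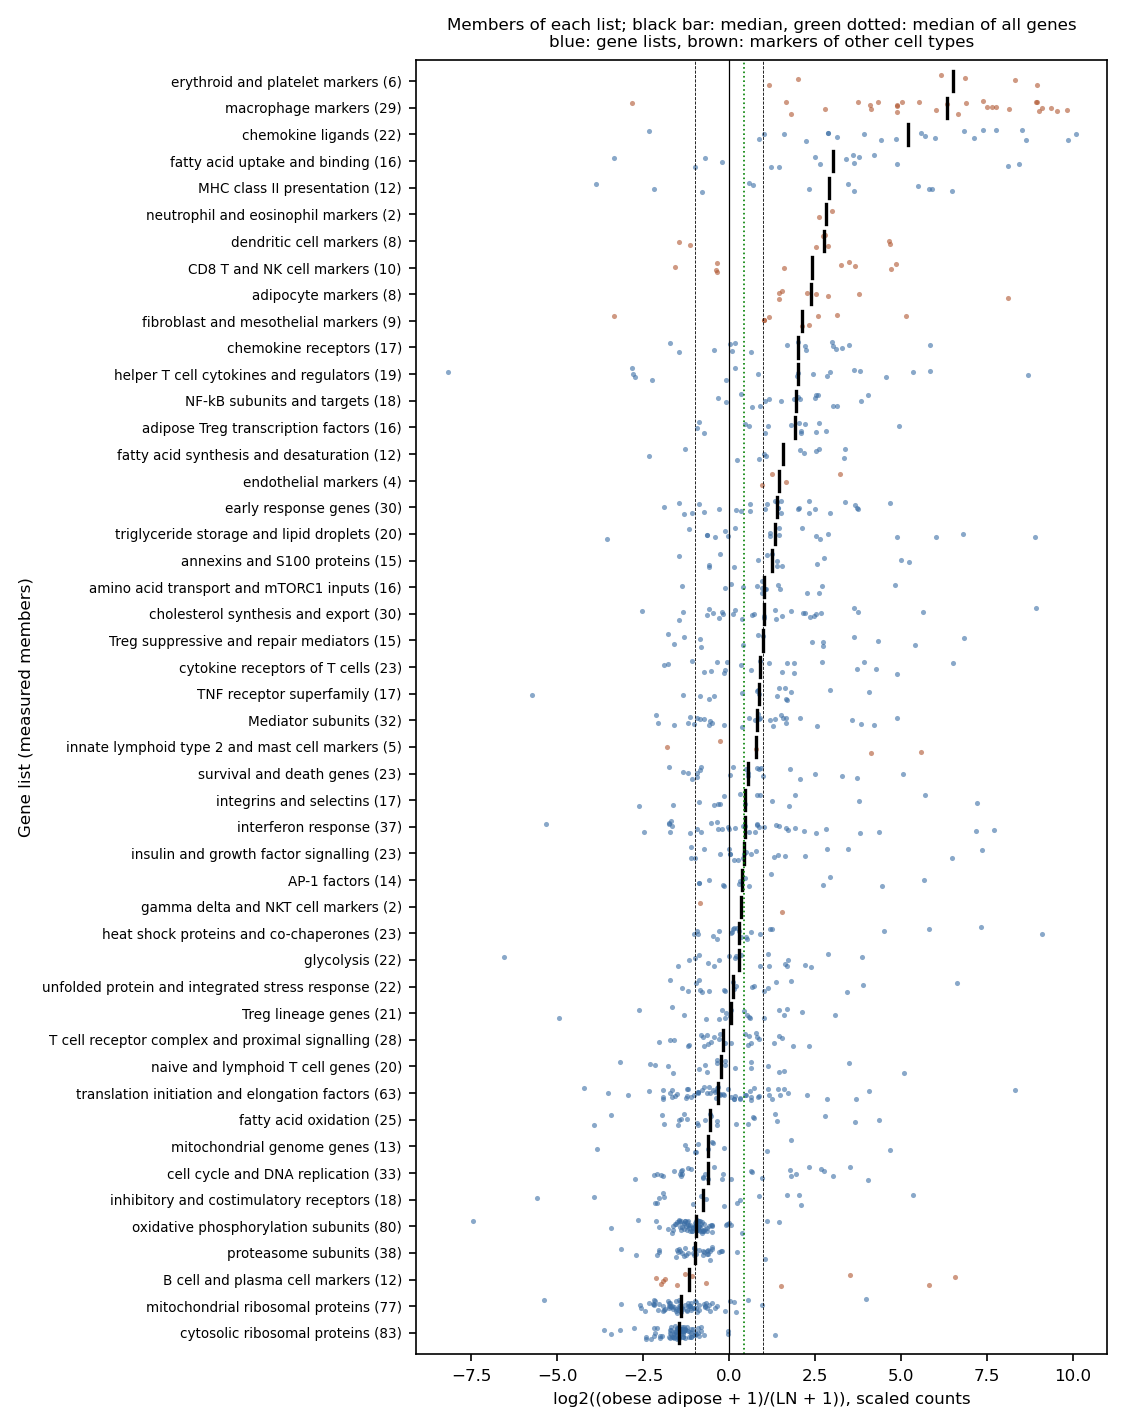
Each point is 1 measured gene, placed by log2((obese adipose + 1)/(LN + 1)) on the x axis in the row of its list; black bars are medians, dashed lines 2-fold and the green dotted line the median of all genes, 0.44. Ribosomal protein lists lie at the low end, with medians of -1.45 and -1.40, and chemokine ligands lead the lists that are not markers (brown) of other cell types.

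Genes of antigen presentation by MHC class II, which mouse T cells barely use, were high in the obese library. Of 12 members, 7 were higher and 2 lower (median 2.89). H2-Aa had 2275 in obese adipose, 49.1 in LN and 434 in lean adipose, and Cd74, the invariant chain gene, 3634, 330.2 and 745. H2-Ab1 was 63.1-fold higher (54.4 to 73.6). In sum the list had 8565 scaled counts in obese adipose, 1211 in LN and 1943 in lean adipose. The macrophage marker sums stood in the same order in these 3 libraries. The 10-month library did not follow it, with 958 CPM for MHC class II against 1142 CPM in LN. The part of other cells in these values was not tested. H2-Oa and H2-DMb2, known for B cells, were lower, at 8.92 and 44.3 and at 0 (1 read) and 13.6.

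Of the 29 macrophage markers, 28 were higher and 1, the scavenger receptor gene Marco, was lower (median 6.35, or 7.62 at the bounds). In LN 25 of them were listed at 0. Lyz2, the lysozyme gene, had 1680 and 7.44, 226-fold higher (178 to 291). The defining genes Csf1r, Adgre1 and Cd68 had 99.7, 118 and 216 with no LN read, and 17.8, 13 and 55.7 in lean adipose. Mrc1, of tissue macrophages, had 495, Cd163 16.5 and Trem2, of lipid-associated macrophages, 16.2, again with no LN read. Itgax, a gene of inflammatory adipose macrophages and dendritic cells, was at 5.9. Spi1, the gene of the myeloid factor PU.1, had 31.8 against 3 LN reads.

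The other marker lists were far smaller in sum. Dendritic cell markers summed to 95.1 in obese adipose and 30.6 in LN, with 6 of 8 higher and 2 lower, and 5 of the 8 were listed at 0 in LN. Fibroblast and mesothelial markers summed to 62.6 and 10.2, against 1189.8 in lean adipose. Dcn, the decorin gene, had 7.79 in obese and 752 in lean adipose. All 8 measured adipocyte markers were higher, as they had to be with all at 0 in LN, but 276 of their sum of 309.5 was Fabp4, Adipoq had 1.76, and Plin1, Lep and Cfd carried no value above 0. All 6 erythroid and platelet markers were listed at 0 in LN, and Hba-a1, an α-globin gene, had 496 in obese adipose. Of 12 B and plasma cell markers, 7 were lower and 4 higher (median -1.18), with Cd79b 4.11-fold lower (3.48 to 4.88) but the plasma cell gene Jchain at 94.7 with no LN read. Over the members with 10 or more in either library the median of that list was 1.51. Of 10 CD8 T and NK cell markers, 6 were higher and 1 lower, with Gzma at 28.1 and no LN read, Nkg7 at 276 and 361, and Cd8a as low as given above. Of these 10, 5 were listed at 0 in LN and so had to be higher. At a mean of 10 or more, 3 of 6 were higher and 0 lower, and the median went from 2.42 to 0.62. The neutrophil genes S100a8, S100a9 and Ly6g and the mast cell genes Kit and Fcer1a carried no value above 0 on either side. The 5 measured genes of the type 2 innate lymphoid and mast cell list summed to 403 and 37.5, of which Calca, a neuropeptide gene, made up 341 and 18.4. Endothelial markers summed to 88.2 and 38.5, most of it Pecam1, and gamma delta and NKT cell markers to 7.54 and 11. Without all marker genes of other cell types, 14619 of the 14713 genes were left, of which 6071 were higher and 3471 lower. So few genes were taken out that these counts cannot show the part of other cells.

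**Figure D5:**
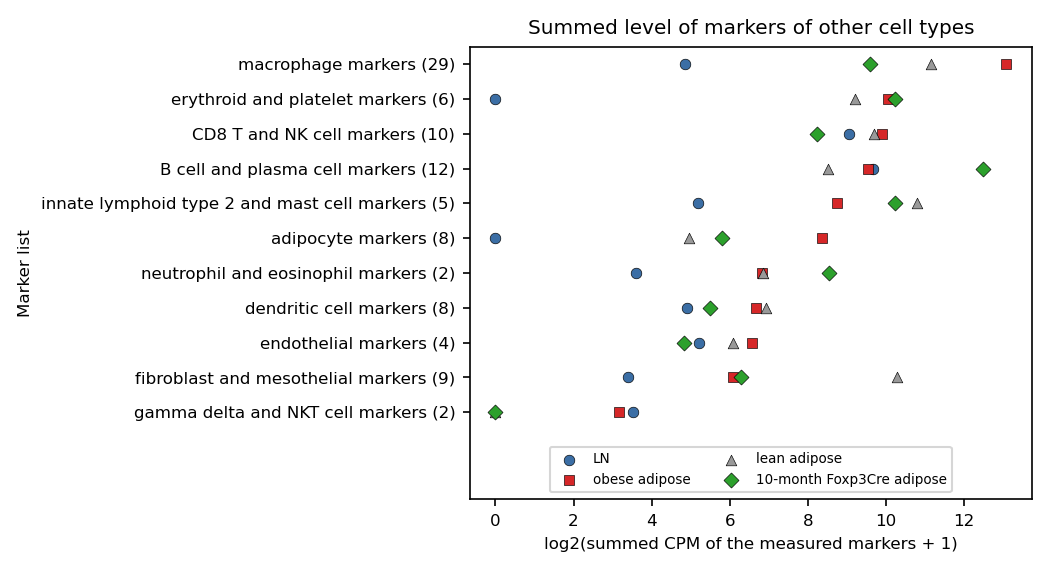
Summed level of the measured markers of 11 other cell types, as log2(summed CPM + 1) on the x axis, 1 library per group. The macrophage sum is highest in obese adipose (8698 CPM) and lowest in LN (28.2 CPM), with lean (2278 CPM) and 10-month adipose (764 CPM) between.

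Genes with high LN values and almost none in the obese library lay in part side by side on chromosomes. Of 5498 protein-coding genes at 20 or more in LN whose neighbours could be read from the RefSeq gene table (GRCm38.p6), 173 (3.15%) were at least 10-fold lower in obese adipose or listed at 0 there. Of these, 42 (24.3%) directly followed or preceded another such gene in the order of the 5498. With up to 1 other gene of the 5498 allowed between them, 46 of the 173 lay in 16 runs. The longest run has 11 genes from Gstp1 to Pold4 and holds Cdk2ap2, a cell cycle regulator gene with 1505 in LN and no read in obese adipose. It also holds Ptprcap, the gene of a CD45-associated protein of lymphocytes, with 9.8 and 1396. Other runs are Map4k2, Sf1 and Rasgrp2, then C1qtnf4, Ndufs3 and Celf1, and Rnf181, Vamp5 and Vamp8. Ranbp1, of nuclear transport, had 389 in LN and no read in obese adipose. Ndufs3, a complex I subunit gene, had 175 and no read.

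Of the 173 genes, 121 were also at least 10-fold lower in lean adipose, whose comparison shares the LN library. In the 10-month library 95 of the 173, and 35 of the 46 in runs, had 10 CPM or more. Cdk2ap2 had 625 CPM there and Ranbp1 189 CPM, with Ndufs3 at 109 CPM. Lean adipose also had 532 for Ddx3y and 0 for Xist, close to the obese library, and the 10-month library had 440.4 CPM for Xist. On the higher side, 515 of 5871 genes (8.77%) were at least 10-fold higher, and 123 of these (23.9%) stood next to another such gene. The genes 10-fold lower were fewer (3.15%), so both shares of neighbours cannot be read against each other directly. Of the 173, 48 had no read at all in obese adipose. The runs were looked for after these values had been seen, and their cause was not tested.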

How the data were processed

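Libraries were made from Trizol RNA with the TruSeq kit (3 micrograms of RNA) and sequenced on a HiSeq2000 as a single experiment, per the labels' protocols. Bowtie2 2.0.6, TopHat2 2.0.9 and the build mm8 are named in the submitters' processing notes. The sources used here name no counter, annotation or strand setting and no normalization method. The authors deposited a table per pair of libraries with a scaled signal per gene, a log2 fold change, a p-value and a q-value. The authors' p-values and q-values, which compare 2 libraries, were not used. Every nonzero value (100%) was a whole number of steps of 1 size per library, to within 0.01 read, which gave the reads. Values listed at 0 were worked out from the deposited log2 fold change where possible, since in it the authors set no reads to 0.5 scaled counts. CPM are deposited values scaled to equal totals.

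A gene was kept at 1 or more in either library, and ratios are log2((obese + 1)/(LN + 1)), called at 2-fold. Folds have exact (Clopper-Pearson) 95% intervals from reads. Reads are not molecules, so intervals and the 3-read floor cover counting error only. Names came from a gene name table (17832 of 17902 IDs with a value matched), and promoters from RefSeq (9724 of 14713 measured symbols had one). Other motifs were scanned in higher members with a promoter. AP-1 letters stood in 0 of 4 AP-1 factors, 1 of 16 early response and 3 of 9 NF-kB genes (8.97% of all genes). Cyclic AMP letters stood in 0 of 4 AP-1 factors and 1 of 16 early response genes (2.03%). The Nr4a motif NBRE stood in 0 of 16 early response genes (1.7%). Sterol letters stood in 0 of 8 cholesterol and 0 of 6 fatty acid synthesis genes (1.44%). Heat shock letters stood in 1 of 6 heat shock genes (0.662%). The members and the 48 gene lists (11 of them markers of other cell types) were chosen with earlier results of these data known. Genes named were Med23, Xist, Ddx3y, key genes marked in the lists, up to 3 members with the highest and 3 with the lowest ratio past 2-fold in each list at 5 or more in the higher library, and the 15 highest and 15 lowest ratios of all genes at 20 or more there, without predicted genes, small RNAs, pseudogenes and antigen receptor segments. Some of these are left out of the text. Genes named only in a run of neighbours or a promoter count, and genes without a value, were chosen after values were seen. The steps were tested on data simulated for the 14713 genes of obese adipose against LN. Only those averaging at least 10 scaled counts over both libraries entered the scoring. Among them, 200 altered 4-fold were all recovered (100%), 0% of the unaltered were called, and 95.2% of intervals held the true fold. Lower genes went unscored, and with 1 library per side the spread between mice could not be simulated. The 0% is thus no rate of false calls for the real comparison. Python 3.11.15, numpy 2.4.6, pandas 2.3.3, scipy 1.17.1 and matplotlib 3.10.9 were used. Trimmed mean (TMM) scaling was computed in Python and not with the count software planned, since the values are not counts as deposited. Alternatives were other pseudocounts, filters and scalings, the authors' fold change and leaving out markers or pseudogenes.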

Additional observations from a re-analysis of the deposited data

Results flagged for a closer look

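The 4 genes given here were at least 2-fold away from LN on opposite sides in obese and in lean adipose. Both comparisons share the LN library, each has 1 library per side, and the difference between them was not tested. Ifit1, an interferon response gene, had a log2 ratio of 1.91 in obese adipose and was 3.88-fold higher (3.31 to 4.56), with 84.8 scaled counts against 21.9. In lean adipose it had 6.01. Csf1, the growth factor gene of macrophages, had -1.31 in obese adipose (4.65 against 13) and 58.4 scaled counts in lean adipose. Agpat2, an enzyme gene of triglyceride synthesis, had -1.18 (2.64 against 7.22), with 22.9 in lean adipose. Col1a2, a collagen gene of fibroblasts, had -3.33 (2 reads, listed at 0, against 9.08), with 30.6 in lean adipose, where the fibroblast and mesothelial markers summed to 1189.8 against 62.6 in obese adipose. The part of other cells in these values was not tested.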

How the results depend on the processing

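No paired analysis was possible because each group has 1 library, and for the same reason no replicate could be left out. The 6144 higher genes became 3370 with a pseudocount of 5, 2817 with 10 or more in a library and 2131 with a mean of 10 or more. The last setting, which took the 3484 lower genes to 2061, was added after seeing the data. Fewer genes are tested under both filters. The median of the B and plasma cell markers, -1.18, was 1.51 over the 7 members with 10 or more in a library and also 1.51 over the 5 with a mean of 10 or more. Equal totals and TMM scaling moved the median ratio of all genes by 0.16 and 0.09, and centring by -0.44. With 10 or more in a library the median of 0.44 became 0.04 with 2444 genes lower, with a mean of 10 or more it became -0.04, and a pseudocount of 5 left 2450 lower. Of the named genes past 2-fold, 0 changed direction under these settings, where a setting kept the gene. Named genes within 2-fold were not counted for this, and centring puts those with a log2 ratio between 0 and 0.44 below 0. Of the 442 named genes, 27 were no longer past 2-fold with a pseudocount of 5 and 24 after centring. Equal totals did this to 9 and TMM scaling to 5. Genes under about 10 reads are listed at 0, so low values limit the ratios of low genes.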

Other observations

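Among genes at the ends of the ratio scale not named above, Retnla, a gene of alternatively activated macrophages and a member of the macrophage marker list, had 661 scaled counts in obese adipose and no LN read, and 722 in lean adipose. Wfdc17, a myeloid gene, had 455 with no LN read. At the low end, Gcc2, the gene of a Golgi coiled-coil protein, had 1 read (listed at 0) and 188 scaled counts, and Ide, the gene of insulin-degrading enzyme, no read and 78.9. In all, 71 genes had 100 or more in obese adipose and were listed at 0 in LN, 59 of them with no LN read. The other way round there were 10, of which 7 had no read in obese adipose. By gene class, 207 of 434 lincRNAs were higher and 138 lower, 251 of 447 antisense genes were higher and 123 lower, and 4213 of 11541 protein-coding genes were higher and 2742 lower. Pseudogenes took 1.32% of listed counts in obese adipose and 0.473% in LN. The sources used here do not say whether counting used strand, and reads of antisense genes and their partners cannot be told apart.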
